A study of Mus musculus with 14 samples.

Results

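LGR5 cells of the mouse jejunum were compared with crypt cells of the same region by RNA sequencing, gene by gene. The comparison used 5 of the 14 libraries of the study, chosen by their labels: 2 of LGR5 cells and 3 of crypt cells. All came from the small intestine of C57Bl6 mice labelled male and aged 6 to 12 weeks, from tissue 5 to 8 cm from the pylorus. The intestines were broken up mechanically and with enzymes, and sorted cells were put into lysis buffer for RNA. The labels call the groups LGR5 stem cells and crypt stem cells. They do not give the reporter, antibody or gate behind the LGR5 selection, the gate of the crypt cells, or whether libraries came from separate mice or pools, so p-values measure only the spread between these libraries. A further 2 jejunal libraries of cells sorted as CD44+/CD24lo/CD166+ (CD166 cells) and the 5 LGR5 and crypt libraries of the ileum served for comparison.

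The jejunal epithelium is renewed from crypt base columnar (CBC) cells, stem cells that sit between Paneth cells at the crypt bottom. They carry Lgr5, a receptor for R-spondins that amplifies Wnt signalling. Their progeny divide in the crypt as transit-amplifying cells under Notch control and then become absorptive enterocytes or secretory goblet, Paneth, enteroendocrine and tuft cells. Enterocytes carry the brush border and absorb sugar, peptides and fat. A crypt preparation holds these cells in a mixture, and it can also hold intraepithelial lymphocytes, which lie between epithelial cells.

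Expected counts summed to 11279412, 6295828 and 20380369 in crypt 1, 2 and 3 and to 7904393 and 11206019.7 in LGR5 1 and 2. The library jejunum crypt 2 stood apart. Over the 13487 genes tested, Pearson's r of log2 values was 0.9827 between crypt 1 and crypt 3 and 0.9898 between the LGR5 libraries, but 0.8872 and 0.8924 between crypt 2 and the other crypt libraries. Crypt 2 had 1158 CPM (counts scaled to a common library total) of Xist, the RNA of the inactive X chromosome, and a summed level of 0.159 CPM of 4 Y-linked genes, against its male label. Crypt 1 and crypt 3 had 3.00 and 2.50 CPM of Xist and summed Y-linked levels of 162 and 132 CPM. Both LGR5 libraries held Xist (1107 and 1483 CPM) together with Y-linked RNA (76.2 and 113 CPM), as did the CD166 libraries (204 and 747 CPM of Xist, 29.0 and 85.4 CPM of Y-linked RNA), although labelled male. The part of this in the results was not tested. Each main count is therefore given with all 5 libraries and without crypt 2. Without crypt 2, the crypt libraries left are low in Xist and the LGR5 libraries are high. In that fit the mix of sexes and the group cannot be told apart.

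The defining gene of the sort checked the labels. Lgr5 (ENSMUSG00000020140) measured 34.7, 12.5 and 26.6 normalised CPM in crypt 1, 2 and 3, against 194 and 179 in LGR5 1 and 2. The LGR5 libraries lay above every crypt library. The log2 fold change, LGR5 minus crypt in all that follows unless stated otherwise, was 2.92 ± 0.42 (SE), with an edgeR adjusted p of 0.0219. As the gene the cells were selected by, it is a check and not a finding. Cd44, a surface glycoprotein and Wnt target, was at 44.6, 37.4 and 35.1 CPM in crypt and 177 and 166 in LGR5 cells (2.13 ± 0.19, adjusted p = 0.0097). The epithelial adhesion molecule Epcam differed little, with 1747, 1033 and 1626 CPM in crypt and 1454 and 1358 in LGR5 cells (adjusted p = 0.92). Alcam, which encodes CD166, was at 50.3, 29.6 and 47.2 CPM in crypt and at 40.4 and 44.7 in LGR5 cells (adjusted p = 0.992). Cd24a was at 342, 138 and 284 CPM in crypt and at 552 and 445 in LGR5 cells, and was not called (adjusted p = 0.195).

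Of the 13487 genes, 935 were called at an adjusted p under 0.05, which is 6.93%. Of these, 193 (1.43%) were higher in LGR5 cells and 742 (5.5%) were lower. The median log2 fold change over all genes was -0.04, and 895 of the called genes differed at least 2-fold. In 26.8% of the 13487 genes both LGR5 libraries lay above every crypt library, and in 28.4% both lay below. Without crypt 2 the same test called 5466 of 13186 genes (41.5%), 2456 (18.6%) higher and 3010 (22.8%) lower. List counts without crypt 2 below stand beside the shares of that fit. Of the 935 genes, 921 were called in that fit too, all in the same direction. Left without crypt 3, the fit called 163 genes, without crypt 1 it called 593, and without either LGR5 library it called 0, with 1698 and 1518 genes at an unadjusted p under 0.05. In bulk RNA, fewer cells of a type and less RNA per cell cannot be told apart, which holds for every difference below.

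Genes of CBC stem cells were higher in LGR5 cells wherever they were called. All 30 members passed the filter on low counts, 14 were called higher and none lower, and the median log2 fold change was 2.12 against -0.04 for all genes. Without crypt 2, all 30 were called higher, with a median of 1.83. Gkn3, a secreted gastrokine found in CBC cells, was at 13.2, 21.5 and 23.4 CPM in crypt and at 138 and 117 in LGR5 cells (2.72 ± 0.30, adjusted p = 0.0121). Fstl1, a secreted follistatin-like protein, was at 3.43, 4.15 and 5.89 CPM in crypt and at 39.2 and 37.4 in LGR5 cells (3.08 ± 0.30, adjusted p = 0.0106). Rnf43, a ubiquitin ligase that removes Wnt receptors, was at 66.3, 48.2 and 59.1 CPM in crypt and at 206 and 234 in LGR5 cells (1.92 ± 0.21, adjusted p = 0.0121). The replicates of these genes differed far less than the groups.

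Several of the best known stem cell genes were not called with all 5 libraries. Olfm4, a secreted glycoprotein of CBC cells, was at 3585, 1087 and 1865 CPM in crypt and at 16048 and 12834 in LGR5 cells. The log2 fold change was 2.73 ± 0.60 (adjusted p = 0.0567), and 2.40 ± 0.34 without crypt 2 (adjusted p = 0.00112). Ascl2, the transcription factor that specifies CBC cells, was at 21.3, 4.15 and 31.2 CPM in crypt and at 79.7 and 66.8 in LGR5 cells. Its adjusted p was 0.15 with all libraries and 0.000753 without crypt 2. Smoc2, a matrix protein, was at 160.2, 52.7 and 147 CPM in crypt and at 481 and 437 in LGR5 cells, with adjusted p-values of 0.0757 and 9.39e-05. In each of the 3 genes crypt 2 was the lowest library and the LGR5 libraries were the highest, and the same order of groups held in the whole list, as the plot of stem cell genes shows.

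**Figure D1:**
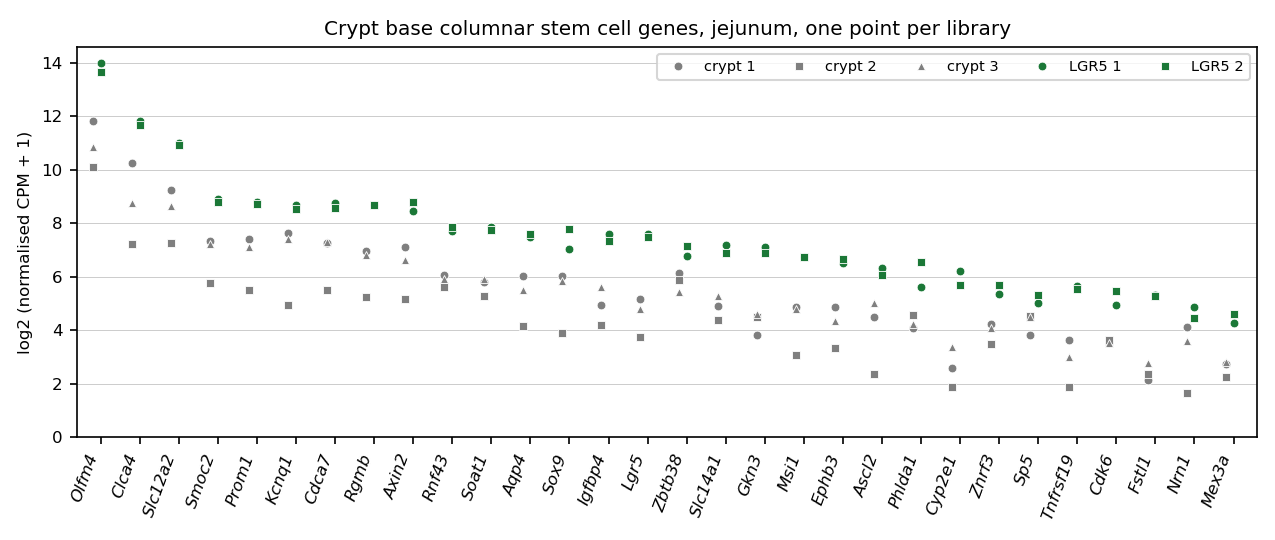
Level of the 30 stem cell genes (x axis, in order of mean level) in each library as log2 of normalised CPM plus 1 (y axis), with grey points for crypt 1 to 3 and green points for LGR5 1 and 2. Both green points lie above all grey points for every gene, an order that 26.8% of all tested genes have. Crypt 2 (grey square) is well below the others for genes such as Ascl2, at 4.15 CPM.

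Wnt pathway genes that were called with all 5 libraries were higher in LGR5 cells. Of 20 tested Wnt targets and feedback genes, 5 were called higher (Rnf43, Myc, Cd44, Ephb3 and Znrf3) and none lower, and without crypt 2 the count was 15 of 19. Myc, a growth regulator, was at 77.9, 33.2 and 65.1 CPM in crypt and at 195 and 236 in LGR5 cells (1.87 ± 0.38, adjusted p = 0.0476). Among 18 tested Wnt receptors and ligands, 3 were called higher: Lgr5 and the Frizzled receptors Fzd7 and Fzd2. Without crypt 2, 6 of these were higher and 2 lower. Fzd7 was at 26.4, 14.6 and 23.2 CPM in crypt and at 68.8 and 76.4 in LGR5 cells (1.75 ± 0.29, adjusted p = 0.0285). Lgr4, a relative of Lgr5, was at 197, 74.9 and 151 CPM in crypt and at 241 and 231 in LGR5 cells and was not called (adjusted p = 0.289).

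Notch and Eph receptors changed in part. Of 8 tested Notch receptors and ligands, the receptors Notch1 and Notch2 were called higher. Notch1 was at 47.9, 43.0 and 46.5 CPM in crypt and at 133 and 180.2 in LGR5 cells (1.77 ± 0.20, adjusted p = 0.013), and Notch2 rose by 1.18 ± 0.19 (adjusted p = 0.0266). Without crypt 2, 4 of the 8 were higher and none lower. Eph receptors and their ephrin ligands guide the sorting of cells along the crypt axis. Ephb3, a receptor of the crypt bottom, was at 28.1, 9.21 and 19.2 CPM in crypt and at 90.4 and 101 in LGR5 cells (2.33 ± 0.45, adjusted p = 0.0413), and Epha4 also rose (2.26 ± 0.46, adjusted p = 0.0475). The ephrin Efnb2 went the other way, with 65.3, 52.0 and 78.9 CPM in crypt and 13.2 and 15.2 in LGR5 cells (-2.20 ± 0.26, adjusted p = 0.0134), as did Epha1 (-1.30 ± 0.25, adjusted p = 0.0423). In all, 2 of 12 tested Eph and ephrin genes were higher and 2 lower, and without crypt 2 the counts were 5 and 3. None of the 17 tested Notch targets, 19 BMP and hedgehog genes or 18 EGF family genes was called. Without crypt 2, the counts were 4 higher and 4 lower of 17, and 2 higher and 3 lower of 18. For EGF family genes they were 8 higher and 2 lower of 18. In that fit 18.6% of all genes were called higher and 22.8% lower.

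Few cell cycle genes were called with all 5 libraries, though nearly all lay above 0. Of 40 DNA replication genes, all tested, Prim1, a primase subunit, and Rfc3, a clamp loader subunit, were called higher, and of 35 mitosis genes none was called with edgeR and 1 with DESeq2. The median log2 fold changes were 0.76 (38 of 40 above 0) and 0.63 (35 of 35 above 0). Prim1 was at 41.3, 40.3 and 35.4 CPM in crypt and at 84.0 and 80.3 in LGR5 cells (1.07 ± 0.18, adjusted p = 0.0281). Without crypt 2 the counts were 27 higher and 1 lower for replication and 10 higher for mitosis, with medians of 0.49 and 0.27. The proliferation marker Mki67 was at 341, 82.3 and 290.2 CPM in crypt and at 413 and 479 in LGR5 cells (adjusted p = 0.353, and 0.0391 without crypt 2). The topoisomerase gene Top2a was at 366, 92.4 and 299 CPM in crypt and at 392 and 362 in LGR5 cells, so that crypt 1 lay within the range of LGR5 cells.

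The genes that block the cell cycle included large decreases. Cdkn2b, the CDK inhibitor p15, was at 96.8, 55.6 and 82.5 CPM in crypt and at 4.74 and 4.65 in LGR5 cells, 16.7-fold lower (-4.06 ± 0.34, adjusted p = 0.00948). Cdkn1a, the CDK inhibitor p21, was at 129, 115 and 169 CPM in crypt and at 19.4 and 26.2 in LGR5 cells (-2.59 ± 0.28, adjusted p = 0.0121). The groups did not overlap for either gene, and 28.4% of all tested genes lay in this order. Cdkn2b and Cdkn1a were the called members among 14 tested. Without crypt 2, 5 of the 14 were lower and 2 higher. Genes for ribosome assembly rose in small numbers, with 2 of 29 called: Nop56 (1.05 ± 0.18, adjusted p = 0.0302) and Gnl3 (1.05 ± 0.20, adjusted p = 0.0391). Without crypt 2 there were 15 higher and none lower. None of 78 tested ribosomal protein genes was called with edgeR and 28 were higher and 1 lower with DESeq2, while without crypt 2 67 were higher and 1 lower. Of the 78, 76 had a log2 fold change above 0 with all libraries.

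The enterocyte programme was lower in LGR5 cells. Of the 30 enterocyte genes, all tested, 29 were called lower and none higher, with a median log2 fold change of -4.23. Without crypt 2 the count was again 29, with a median of -3.91, but Alpi, intestinal alkaline phosphatase, was then not called (adjusted p = 0.0572). Sis, the brush border enzyme sucrase-isomaltase, was at 2301, 3336 and 2484 CPM in crypt and at 136 and 108 in LGR5 cells, 22.2-fold lower (-4.47 ± 0.41, adjusted p = 0.0097). Krt20, a keratin of differentiated cells, was at 822, 1183 and 878 CPM in crypt and at 35.6 and 23.3 in LGR5 cells (-5.03 ± 0.41, adjusted p = 0.00939). Fabp2, a fatty acid binding protein, was the member not called: it was at 2142, 16359.6 and 3141 CPM in crypt and at 363 and 290.4 in LGR5 cells, and its adjusted p moved from 0.079 to 3.86e-05 without crypt 2. Every crypt library lay above both LGR5 libraries for all 30 genes, as the plot of enterocyte genes shows, and for 28.4% of all tested genes.

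**Figure D2:**
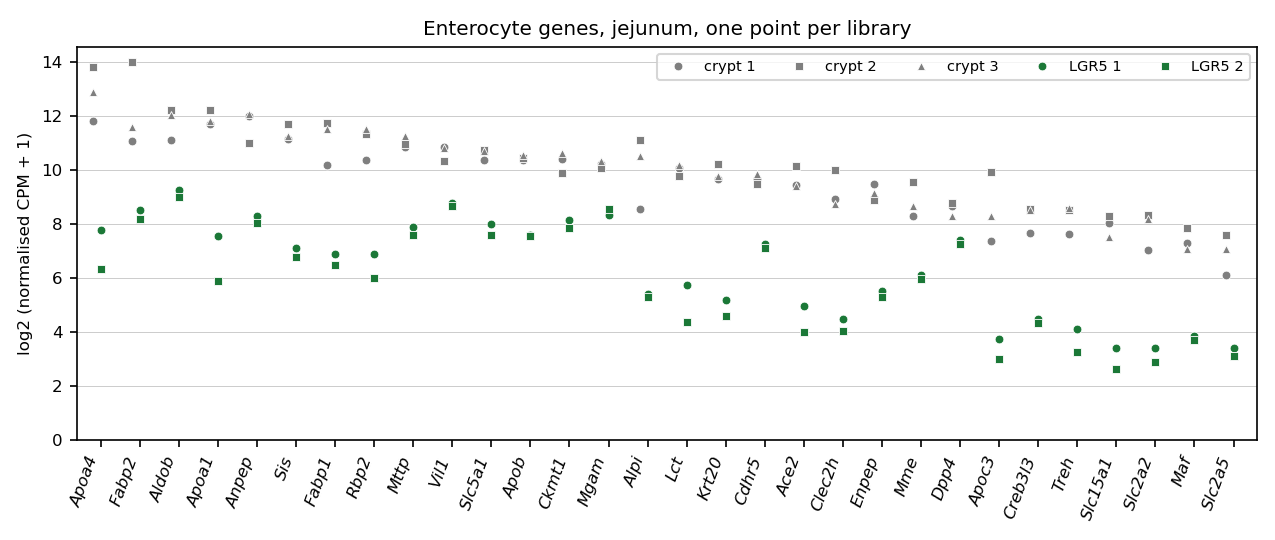
Level of the 30 enterocyte genes (x axis, in order of mean level) in each library as log2 of normalised CPM plus 1 (y axis), with grey points for crypt 1 to 3 and green points for LGR5 1 and 2. All grey points lie above the green points; for Sis the crypt libraries are at 2301 to 3336 CPM and the LGR5 libraries at 108 and 136.

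Genes of fat absorption, the brush border and drug metabolism, which partly overlap with the enterocyte list, were lower too. For lipid absorption 19 of 24 members were called lower, for the brush border 9 of 15 and for xenobiotic metabolism 22 of 33, with none higher. Without crypt 2 the counts were 22, 13 and 22, again with none higher. The apolipoprotein gene Apoa4 was at 3635, 14628 and 7659.9 CPM in crypt and at 221 and 80.1 in LGR5 cells (-5.84 ± 0.98, adjusted p = 0.0314). Mttp, which loads lipid onto apolipoprotein B, was at 1856, 1981 and 2440.1 CPM in crypt and at 234 and 191 in LGR5 cells (-3.30 ± 0.35, adjusted p = 0.0119). All crypt libraries lay well above the LGR5 libraries for both. Npc1l1, the cholesterol uptake protein, was at 623, 461 and 575 CPM in crypt and at 62.5 and 62.4 in LGR5 cells (-3.15 ± 0.28, adjusted p = 0.00959). Pdzk1, a scaffold of brush border transporters, was at 148, 131 and 160.0 CPM in crypt and at 2.54 and 1.34 in LGR5 cells, 76.6-fold lower (-6.26 ± 0.38, adjusted p = 0.00935). The villus protein gene Vil1 was at 438 and 406 CPM in LGR5 cells against 1839, 1279 and 1801 in crypt (-1.96 ± 0.33, adjusted p = 0.0313). Of drug metabolism, Aldh1a1, which makes retinoic acid, was at 572, 839.9 and 1321 CPM in crypt and at 37.4 and 21.4 in LGR5 cells (-4.95 ± 0.58, adjusted p = 0.0134). Cyp3a11, a cytochrome P450 whose reads may be shared with close relatives, was at 554, 4292 and 1716 CPM in crypt and at 41.4 and 12.6 in LGR5 cells (-6.34 ± 1.26, adjusted p = 0.0461), and it was not called without crypt 2 (adjusted p = 0.0701).

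Lists of regulators and metabolism had fewer calls. With all 5 libraries 1.43% of all genes were called higher and 5.5% lower, and without crypt 2 the shares were 18.6% and 22.8%. Of 20 epithelial identity genes Vil1 and Hnf4g were called, both lower, while without crypt 2 the counts were 4 higher and 5 lower. Hnf4g, a nuclear receptor of enterocytes, was at 493, 539 and 424 CPM in crypt and at 111 and 122 in LGR5 cells (-2.06 ± 0.25, adjusted p = 0.0142). Its relative Hnf4a was at 1143, 399.7 and 1126 CPM in crypt and at 1034 and 1019 in LGR5 cells (adjusted p = 0.815). Of 20 glycolysis genes, 2 were called lower (Pfkp and Slc16a3), and 12 were lower and 1 higher without crypt 2. Pfkp, a phosphofructokinase, was at 259, 200.2 and 274 CPM in crypt and at 39.4 and 37.3 in LGR5 cells (-2.67 ± 0.25, adjusted p = 0.0097). Further lists held few calls: 3 of 18 integrin and basal contact genes (Plec, Dst and Itgb5) were lower. Also lower were 1 of 17 tight junction genes (Cldn23), 1 of 22 cholesterol synthesis genes (Sc5d) and 1 of 16 stress genes (Trib3). These stand beside 5.5% of all genes called lower. Msi2 was higher among 8 genes of reserve stem cells. With edgeR no member was called among 19 chromatin, 12 stromal, 5 B cell and 3 neural genes tested. In the fit without crypt 2, these lists had 19, 10, 3 and 2 tested genes. The counts there were 9 higher, 2 lower, 1 higher, and 1 higher and 1 lower.

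**Figure D3:**
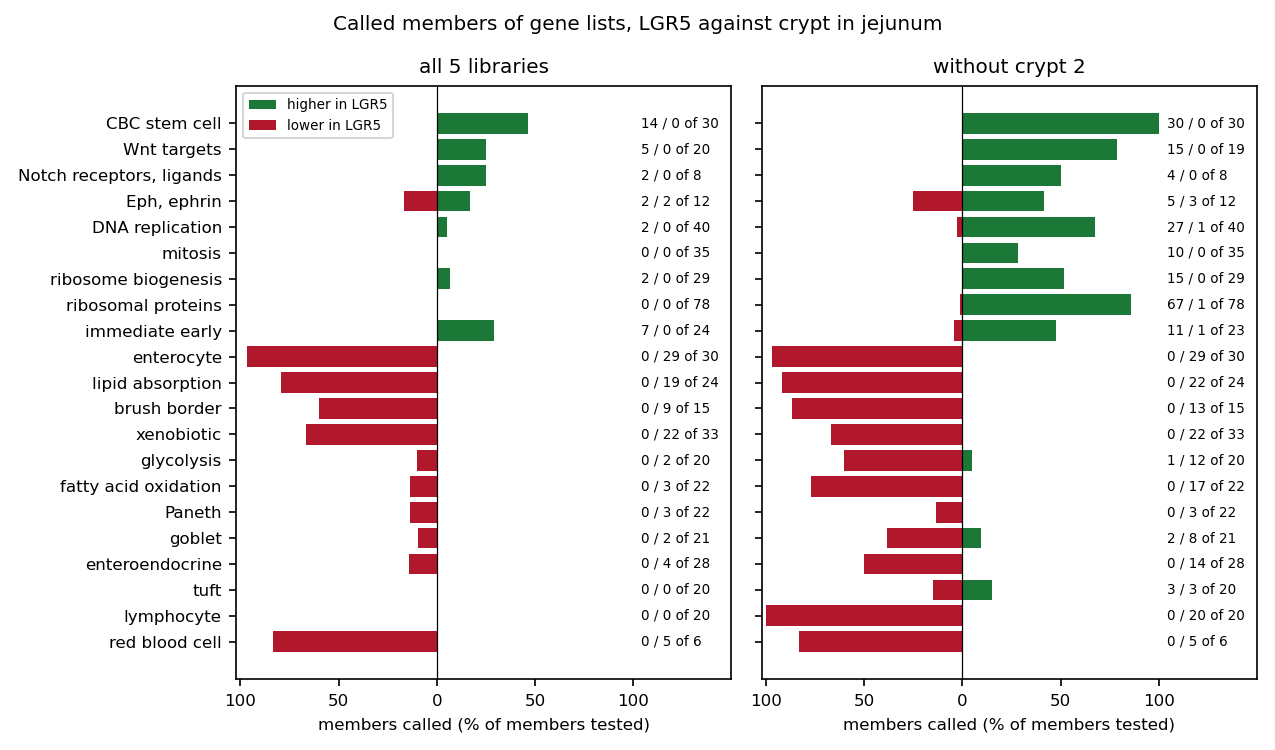
Share of tested members called higher (green, to the right) or lower (red, to the left) in LGR5 cells for 21 gene lists, with all 5 libraries in the left panel and without crypt 2 in the right panel; the numbers beside the bars are members higher, members lower and members tested. The enterocyte bar is 29 of 30 lower in both panels, while the stem cell bar goes from 14 to 30 of 30.

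A minority of the secretory lineage genes was called with all 5 libraries. The share of all genes called lower was 5.5%, and 22.8% without crypt 2. Of 22 tested Paneth cell genes 3 were called lower (Spink3, Guca2b and Reg4), also 3 without crypt 2, but the defining ones were not: lysozyme, Lyz1, was at 8567, 3809 and 2193 CPM in crypt and at 1824 and 2409.5 in LGR5 cells, so that the groups overlapped (adjusted p = 0.285). Guca2b, the precursor of uroguanylin, is also made by other epithelial cells and was at 379, 593 and 438 CPM in crypt and at 45.6 and 23.3 in LGR5 cells (-3.77 ± 0.45, adjusted p = 0.0136). The goblet cell lectin gene Zg16 was at 1398, 2180.0 and 1363 CPM in crypt and at 208 and 80.0 in LGR5 cells (-3.52 ± 0.58, adjusted p = 0.0299). It was 1 of 2 called of 21 goblet genes; the other, the chloride channel regulator listed as Clca3, was not called without crypt 2 (adjusted p = 0.059), where 8 goblet genes were lower and 2 higher. The mucin gene Muc2 was at 1228, 214 and 836 CPM in crypt and at 224 and 154 in LGR5 cells (adjusted p = 0.155, and 0.000318 without crypt 2).

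Enteroendocrine genes were called lower in 4 of 28 cases: Ddc, Sst, Sct and Nts. Without crypt 2 there were 14. Secretin, Sct, was at 23.8, 30.0 and 24.9 CPM in crypt and at 6.01 and 5.91 in LGR5 cells (-2.13 ± 0.25, adjusted p = 0.0134), and somatostatin, Sst, at 51.0, 42.2 and 76.7 against 16.6 and 18.9 (-1.67 ± 0.32, adjusted p = 0.041). No tuft cell gene of 20 tested was called with edgeR, while 3 were higher and 3 lower without crypt 2 and DESeq2 called 2 lower. The crypt and LGR5 libraries had summed tuft levels of 689.9 to 838 and 801 to 938 CPM. These sums include Cd24a, at 138 to 346 CPM in crypt and at 559.8 and 451 in LGR5 1 and 2.

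Immediate early genes, which cells switch on within minutes of many stimuli, made up 5 of the 12 largest increases. Of 24 tested members 7 were called higher (Jun, Egr1, Ier2, Fosb, Cyr61, Dusp1 and Arc) and none lower, and without crypt 2 the counts were 11 higher and 1 lower of 23. Fosb, a subunit of the AP-1 transcription factor, was at 1.90, 1.62 and 1.86 CPM in crypt and at 75.1 and 209 in LGR5 cells, 78.1-fold higher (6.29 ± 0.52, adjusted p = 0.00939). Egr1, a zinc finger transcription factor, was at 12.0, 40.6 and 10.1 CPM in crypt and at 245 and 649 in LGR5 cells (4.44 ± 0.79, adjusted p = 0.0353). Jun was at 31.1, 61.4 and 41.2 CPM in crypt and at 517 and 899.6 in LGR5 cells (3.99 ± 0.42, adjusted p = 0.012). Its partner Fos was at 22.6, 87.2 and 41.2 CPM in crypt and at 274 and 704 in LGR5 cells, just outside the call with all libraries (3.29 ± 0.68, adjusted p = 0.0512) and inside it without crypt 2 (adjusted p = 0.0381). The LGR5 libraries differed from each other here: all 24 tested members were higher in LGR5 2 than in LGR5 1, against 49.4% of all tested genes. The CD166 libraries had high levels as well, with a summed level of the list of 1644 and 4209 CPM, beside 2230.0 and 4425 in LGR5 cells and 931, 1351 and 961 in crypt. What set these levels was not tested. The matricellular gene Cyr61 was at 2.17, 3.43 and 4.72 CPM in crypt and at 43.1 and 133 in LGR5 cells (4.66 ± 0.60, adjusted p = 0.016), and was not called without crypt 2 (adjusted p = 0.0602).

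The other large increases were in genes of less common use as markers. Edn1, the vasoconstrictor endothelin, was at 1.72, 0.722 and 0.902 CPM in crypt and at 14.3 and 32.8 in LGR5 cells (4.37 ± 0.56, adjusted p = 0.0161). Pla2g5, a secreted phospholipase, was at 2.26, 2.71 and 1.27 CPM in crypt and at 22.9 and 25.0 in LGR5 cells (3.56 ± 0.40, adjusted p = 0.0124). Htr4, a serotonin receptor, was at 2.53, 1.26 and 2.07 CPM in crypt and at 20.7 and 24.1 in LGR5 cells (3.48 ± 0.37, adjusted p = 0.0119). Ceacam10, Gpr110, Thbs1 and the stem cell list member Cyp2e1 completed the 12, with log2 fold changes of 3.52, 3.45, 3.41 and 3.42. Ceacam10 was at 66.0 and 66.5 CPM in the LGR5 libraries and Gpr110 at 18.6 and 25.8.

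Among the 12 largest decreases were genes of other cells than the epithelium. Haemoglobin genes Hba-a1 and Hbb-b1 are made by red blood cells, and their reads may be shared with near-identical copies. Hba-a1 was at 8.94, 17.7 and 13.2 CPM in crypt and at 0.116 and 0.236 in LGR5 cells, which is 1 and 3 reads (-6.09 ± 0.61, adjusted p = 0.0106). Runx3, a transcription factor of lymphocytes, was at 10.3, 63.7 and 8.75 CPM in crypt and also at 1 and 3 reads in LGR5 cells (-7.13 ± 1.46, adjusted p = 0.0498). Aqp3, a water and glycerol channel, was at 14.4, 36.5 and 27.3 CPM in crypt and at 3 reads in each LGR5 library (-6.46 ± 0.64, adjusted p = 0.0106). Enpp7, Gsta1, Slc2a7, Prrx1 and Apoc3, with Apoa4, Cyp3a11 and Pdzk1 above, completed the 12 (-6.05 to -5.65), and Enpp7 and Gsta1 were not called without crypt 2 (adjusted p = 0.108 and 0.0948).

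Lymphocyte markers set the crypt libraries apart from the sorted cells and crypt 2 apart from the other crypt libraries. The summed level of 22 lymphocyte genes was 1279.8, 14924 and 1005 CPM in crypt 1, 2 and 3, and 44.6 and 18.4 CPM in LGR5 1 and 2, where 4 of the 22 were at 0 in each. The granzyme gene Gzma was at 338, 5743 and 266 CPM in crypt and at 16.1 and 3.86 in LGR5 cells. None of the 20 tested members was called with all libraries, and all 20 were called lower without crypt 2. Myeloid genes summed to 109, 835 and 73.5 CPM in crypt and to 37.9 and 42.9 in LGR5 cells, and red blood cell genes to 45.5, 95.4 and 72.7 against 3.3 and 4.9, with 5 of 6 tested called lower. Interferon and MHC class I genes, which immune cells also express, had 2 of 22 called lower (Ifit1 and Ifit3) and 14 without crypt 2. MHC class II genes ran differently. Cd74, the invariant chain, was at 93.3, 538 and 18.3 CPM in crypt and at 481 and 477 in LGR5 cells. In both LGR5 libraries the lymphocyte and myeloid sums were below those of every crypt library. The B cell sum was above that of every crypt library, with Blnk as its most abundant member. Of its 12 genes, 3 were at 0 in each LGR5 library and 1 in each crypt library. Among the 5 B cell genes tested, 2 had a log2 fold change above 0, and the median was -2.20. The source of the class II RNA was not tested. Cd74 was not called with all libraries or without crypt 2 (adjusted p = 0.567 and 0.148). In the latter fit 3 of the 7 tested class II genes were higher. Cd14 and Esam, listed as myeloid and endothelial markers, were the called members of their lists and were higher in LGR5 cells (1.95 ± 0.35 and 2.23 ± 0.45). Most members of these lists went the other way: 2 of 18 and 2 of 7 tested were above 0, with medians of -6.02 and -0.55. Without crypt 2, 1 of 13 myeloid genes was higher and 9 were lower. Of 7 endothelial genes, 1 was then higher and 2 were lower.

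**Figure D4:**
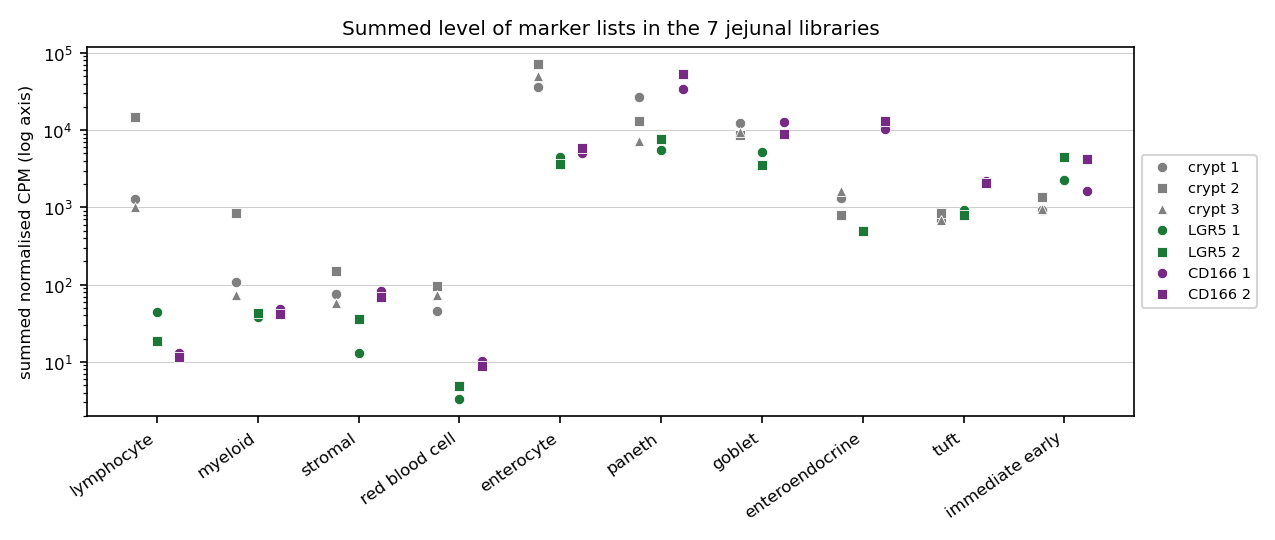
Summed normalised CPM of 10 marker lists (y axis, log scale) in the 7 jejunal libraries, with grey, green and purple points for crypt, LGR5 and CD166 libraries. Crypt 2 is at 14924 CPM for lymphocyte genes against 1279.8 and 1005 in the other crypt libraries, and both CD166 libraries lie above the LGR5 libraries for enteroendocrine genes.

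RefSeq promoters (GRCm38.p6) were read for the gene groups that moved together, and 1 or 2 are shown for each to give the letters upstream of genes that differed. Shown are the 250 bases before the start, 5′ to 3′, for the Wnt target Cd44, the immediate early gene Dusp1 and the enterocyte genes Fabp1 and Sis. The windows are Cd44 at chr2:102901666-102901915 (minus strand), Dusp1 at chr17:26508473-26508722 (minus strand), Fabp1 at chr6:71199629-71199878 (plus strand) and Sis at chr3:72967864-72968113 (minus strand). Capitals mark matches, on either strand, to the GATA motif in Cd44, the cAMP response element in Dusp1, the HNF1, CDX and TATA motifs in Fabp1 and the HNF1 and TATA motifs in Sis, where TATA matches on both strands overlap.
Cd44: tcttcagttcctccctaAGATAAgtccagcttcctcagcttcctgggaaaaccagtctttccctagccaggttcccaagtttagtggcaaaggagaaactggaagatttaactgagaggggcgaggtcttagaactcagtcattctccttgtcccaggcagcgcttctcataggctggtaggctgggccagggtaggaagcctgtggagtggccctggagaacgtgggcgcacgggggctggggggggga
Dusp1: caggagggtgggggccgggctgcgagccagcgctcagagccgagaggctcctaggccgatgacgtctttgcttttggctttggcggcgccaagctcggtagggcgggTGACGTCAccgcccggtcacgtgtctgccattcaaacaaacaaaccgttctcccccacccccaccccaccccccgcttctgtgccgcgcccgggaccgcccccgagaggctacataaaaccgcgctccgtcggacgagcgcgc
Fabp1: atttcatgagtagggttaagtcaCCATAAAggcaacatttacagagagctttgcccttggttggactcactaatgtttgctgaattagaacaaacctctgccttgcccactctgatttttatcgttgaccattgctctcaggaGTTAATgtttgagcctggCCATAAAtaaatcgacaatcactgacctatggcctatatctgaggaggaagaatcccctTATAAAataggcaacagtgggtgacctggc
Sis: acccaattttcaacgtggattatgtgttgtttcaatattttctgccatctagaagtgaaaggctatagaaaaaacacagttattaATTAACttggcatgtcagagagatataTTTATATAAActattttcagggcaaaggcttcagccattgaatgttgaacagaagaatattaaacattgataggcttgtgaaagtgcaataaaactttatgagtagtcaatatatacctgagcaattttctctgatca

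In these windows 13 motifs were searched on both strands, counting overlapping matches. For Wnt and stimulus responses these were CTTTGAT for TCF/LEF factors, TGACGTCA for the cAMP response element, TGANTCA for AP-1 and the CArG box by name. For the differentiated epithelium they were GTTAAT for HNF1 proteins, CAAAGTCC for the nuclear receptor HNF4, TTTATGG for the homeobox factors CDX and AGATAA for the zinc finger factors of the GATA family. The others were CACGTG for the E-box, TATAAA for the core promoter element TATA, TTCCNGGAA for STAT factors, TTTCCCGC for E2F factors and TTTGAA for the cell cycle homology region. Of the 30 enterocyte genes 26 had a promoter in the table, of the 30 stem cell genes 19, and of the 27 immediate early genes 21. TATAAA stood in 10 of the 26 enterocyte promoters (38.5%), against 14.3% of all 27025 genes, in 4 of 19 stem cell promoters (21.1%) and in 2 of 31 replication promoters (6.45%). The TATAAA matches of Sis begin 134 and 138 bases before the start, and that of Fabp1 begins 30 bases before it. TGACGTCA stood in 3 of 21 immediate early promoters (14.3%), against 1.77% of all genes, and CTTTGAT in 2 of 19 stem cell promoters (10.5%), against 3.72%. In immediate early promoters CACGTG stood in 6 of 21 (28.6% against 6.86%) and TGANTCA in 0 of 21 (against 7.82%). TTTCCCGC stood in 2 of 19 stem cell promoters (10.5% against 1.03%), and CAAAGTCC in 3 of 26 enterocyte promoters (11.5% against 1.38%). Other motifs marked above were near their share in all genes in the lists concerned: GTTAAT stood in 2 of 26 enterocyte promoters (7.69% against 7.49%), which are those of Fabp1 and Sis, and TTTATGG in 1 of 26 (3.85% against 2.83%), that of Fabp1. AGATAA stood in 2 of 12 Wnt target promoters (16.7% against 11.4%). The windows shown do not stand for their lists. These are counts of letters, given without a test. Dusp1, a phosphatase that switches off MAP kinases, was at 3.79, 7.94 and 2.60 CPM in crypt and at 47.2 and 98.9 in LGR5 cells (3.99 ± 0.58, adjusted p = 0.0213). Fabp1, the liver-type fatty acid binding protein, was at 1169.7, 3395 and 2957 CPM in crypt and at 116 and 88.4 in LGR5 cells (-4.61 ± 0.65, adjusted p = 0.0197).

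Against CD166 cells, the other sorted population of the jejunum, LGR5 cells differed most in endocrine genes. In a fit of the 7 jejunal libraries, on whose common scale CPM differ slightly from those above, 158 of 14013 genes were called (1.13%), all lower in LGR5 cells. None was higher with edgeR, while 1339 genes had an unadjusted p under 0.05, and DESeq2 and limma-voom called 34 and 2 higher. The count rested on each of the 4 sorted libraries: it was 6 without LGR5 1, 0 without LGR5 2, 10 without CD166 1 and 14 without CD166 2. Of 29 tested enteroendocrine genes 18 were called lower. Somatostatin, Sst, was at 16.9 and 19.2 CPM in LGR5 cells and at 1909.8 and 1593 in CD166 cells, 97.1-fold lower in LGR5 (-6.60 ± 0.44, adjusted p = 0.00234), while crypt libraries had 51.5, 42.5 and 77.7. The incretin gene Gip was at 49.5 and 67.8 CPM in LGR5 cells and at 3369 and 6489.8 in CD166 cells (-6.39 ± 0.57, adjusted p = 0.00485). Accn5, Iapp and Rgs4 had the other large differences, with log2 fold changes of -7.22, -6.86 and -6.10. Chga, a protein of hormone granules, was at 28.2 and 54.6 CPM in LGR5 cells and at 592 and 683 in CD166 cells (-3.94 ± 0.72), with an adjusted p of 0.067 that became 3.07e-06 without crypt 2. Neurog3, the factor that starts the endocrine lineage, was at 27.4 and 15.01 CPM in LGR5 cells and 19.9 and 16.1 in CD166 cells (adjusted p = 1).

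CDK inhibitors separated the sorted populations as well, with 3 of 14 called lower in LGR5 cells. Cdkn1c, which encodes p57, was at 3.63 and 3.99 CPM in LGR5 cells and at 72.1 and 40.6 in CD166 cells (-3.88 ± 0.39, adjusted p = 0.00782). Cdkn1a was at 19.7 and 26.5 CPM against 149 and 105 (-2.46 ± 0.31, adjusted p = 0.0186), and Cdkn2b at 4.80 and 4.71 against 16.1 and 16.2 (-1.76 ± 0.30, adjusted p = 0.0497). For Cdkn1a, CD166 1 lay within the range of the crypt libraries (115 to 171 CPM) and CD166 2 below it, and for Cdkn2b both lay between LGR5 and crypt cells.

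Crypt 2 entered this fit too, though it belongs to neither group. A fit without it called 1095 of 13966 genes (7.84%), 211 (1.51%) higher in LGR5 cells and 884 (6.33%) lower. Stem cell genes were then called higher in 13 of 30 cases and lower in none, enteroendocrine genes lower in 26 of 29, tuft genes lower in 17 of 21 and goblet genes lower in 8 of 22. Lgr5 was at 197 and 182 CPM in LGR5 cells and at 82.6 and 95.0 in CD166 cells (1.09 ± 0.19, adjusted p = 0.00183 in that fit, and 0.439 with crypt 2). Rgmb, a BMP co-receptor, was at 415 and 416 CPM against 142 and 179 (1.37 ± 0.20, adjusted p = 0.000549 in that fit), and Tnfrsf19, also called Troy, at 49.9 and 46.1 against 15.7 and 19.6 (1.44 ± 0.24, adjusted p = 0.00121). The tuft cell channel gene Trpm5 was at 50.6 and 54.0 CPM in LGR5 cells and at 126 and 148 in CD166 cells (-1.39, adjusted p = 0.239 with crypt 2 and 0.000168 without it). Cd44 differed little between the sorts, with 179 and 168 CPM against 181 and 151. Cd24a was at 559.8 and 451 CPM in LGR5 cells and at 1179 and 1002 in the CD166 cells, which are labelled low in CD24. Of the 30 enterocyte genes none was called with crypt 2 and 4 were called lower without it.

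**Figure D5:**
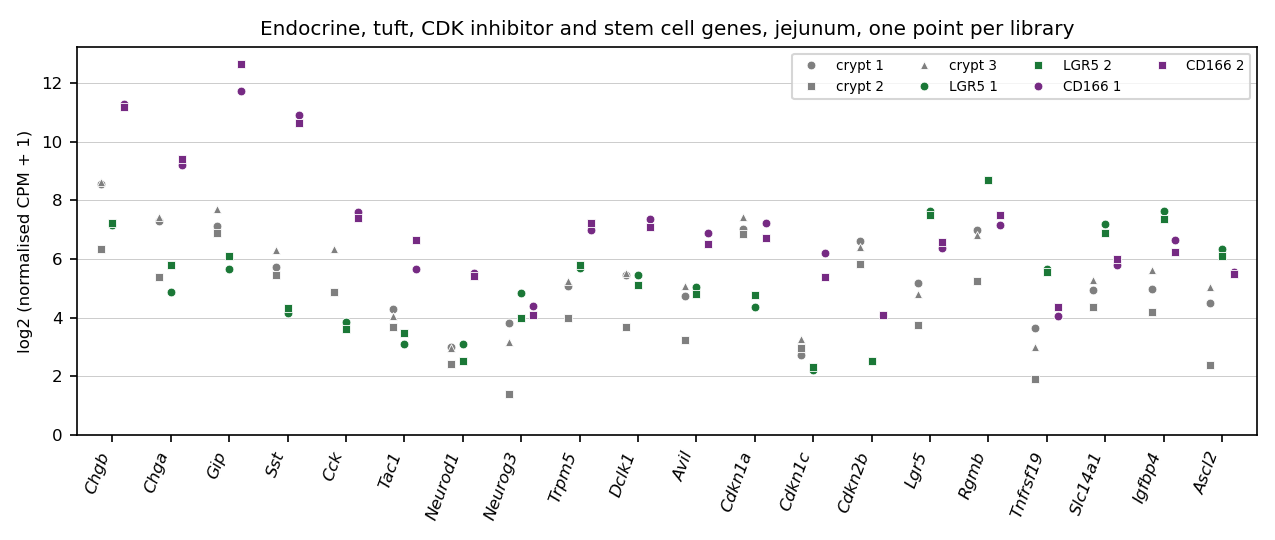
Level of 20 genes (x axis: 8 enteroendocrine, 3 tuft, 3 CDK inhibitor and 6 stem cell genes) in the 7 jejunal libraries as log2 of normalised CPM plus 1 (y axis), with grey, green and purple points for crypt, LGR5 and CD166 libraries. CD166 libraries are highest for the hormone genes shown, such as Sst at 1593 and 1909.8 CPM, and LGR5 libraries are highest for the stem cell genes on the right. Hormone genes not shown include Nts, highest in crypt 1 (34.6 CPM, against 0.0673 and 2.31 in CD166 cells). Gcg, also not shown, was highest in crypt 3 (62.2 CPM, against 49.7 and 51.0).

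The jejunal difference was also set against the same difference in ileum, in a fit of 10 libraries. None of 14059 genes was called for the interaction with edgeR (0%), with 861 at an unadjusted p under 0.05. DESeq2 called 62 and limma-voom none. The library labelled ileum crypt 3 correlated best with jejunum crypt 1 (r = 0.9918 over the genes of this fit) and less with ileum crypt 1 and 2 (0.9454 and 0.9645). Whether its label is wrong was not tested. Ileum crypt 1 had 1758 CPM of Xist and 0 of Y-linked RNA. Ileum crypt 2 and 3 had 3.03 and 2.78 CPM of Xist and 172 and 169 of Y-linked RNA. Without ileum crypt 3, or without jejunum crypt 2, there were still 0 calls. Without both, but with ileum crypt 1 kept, there were 13 calls. Of these, 5 had a more positive difference in jejunum and 8 a more negative one. The stem cell gene Fstl1 was among the 5, with an interaction of 4.60 ± 0.59 (adjusted p = 0.0466), beside 4.92 ± 0.61 (adjusted p = 0.111) with all 10 libraries. With all 10 libraries, the log2 fold change of Fstl1 was 3.09 ± 0.39 in jejunum and -1.83 ± 0.46 in ileum. For Lgr5 the 2 regions gave 2.93 ± 0.52 and 1.95 ± 0.50, and for Sis -4.45 ± 0.49 and -4.70 ± 0.49, without a call for the interaction (adjusted p = 0.895 and 0.967).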

How the data were processed

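RNA was sequenced as single-end 50-base reads from TruSeq libraries, per the labels' protocols. The submitters' processing notes name mm9 and DESeq, and no source used here names the aligner, counter or annotation. For each library the authors deposited expected counts of 36401 genes, which are unscaled although the files are named for RPKM, since their totals differ. They also deposited log2 values, which equalled log2 of the counts after constants per library and gene for the 8826 genes compared, those whose count passed 50 throughout. Expected counts were rounded, filtered with filterByExpr (minimum count 10, minimum total 15), scaled by TMM and tested with edgeR 4.0.16 (R 4.3.3, robust quasi-likelihood fit, 1 mean per group). Adjusted p-values are Benjamini-Hochberg values over all tested genes from edgeR unless another tool is named, and a call is one under 0.05. Standard errors were taken from the fold change and the F statistic. CPM are TMM-normalised, except those of Xist and the Y-linked genes. Where a symbol had several entries, the most abundant was taken. Members of the Cyp, Ces, Gst, Reg, defensin, Clca and haemoglobin families may share reads with close copies.

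The members and the 42 gene lists (899 genes, of which 894 are in the files) were chosen with earlier results of these data known. Genes were named by this rule: the 12 largest changes in each direction among called genes without overlap between groups and a mean log2 CPM of 3 or more (149 higher and 683 lower met it), the 5 largest against CD166, up to 5 called and 3 uncalled members of each list by level, and 8 set genes. Outside it are Arc, Cdkn1c, Fstl1, Gkn3, Hnf4a, Krt20, Muc2, Neurog3, Npc1l1, Rgmb, Tnfrsf19, Trpm5, Chga, Xist and the genes shown in one figure, chosen after their values were seen. Alternatives were other scaling and filters, DESeq2 1.42.0, limma 3.58.1, a replicate block, all 14 libraries and leaving out each library. The tests were checked on simulated data. Some results are not reported here.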

Additional observations from a re-analysis of the deposited data

How the results depend on the processing

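For LGR5 against crypt cells, DESeq2 called 3015 genes (896 higher, 2119 lower), limma-voom with library weights 5762 (2637 and 3125), a fit of all 14 libraries 3405 (1368 and 2037), and limma-voom without weights 297 higher, against 935 (193 and 742). Leaving out 1 library gave 0 to 5466 calls, 0 to 2456 higher and 0 to 3010 lower, the lowest without either LGR5 library and the highest without crypt 2. With 1 LGR5 library left, that library is assumed to vary like the crypt libraries. The share of calls that were higher was 20.6%, and 29.7% with DESeq2, 40.2% with 14 libraries, 44.9% without crypt 2 and 45.8% with library weights, but 12% with the replicate block, 11.8% without crypt 1 and 8.59% without crypt 3. Of 94 genes named in this comparison, 78 were called; all 78 kept their direction in every alternative run, and 45 were called in each alternative that left out no library. Values near 0 turned sign for Alcam (-0.19 to 0.14 when 1 library was left out, lowest without crypt 2, and -0.15 with library weights), Epcam (0.021 with limma-voom, 0.065 with the replicate block, -0.26 to 0.074 when 1 library was left out) and Hnf4a (-0.15 to 0.42 when 1 library was left out, and -0.053 with library weights).

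Against CD166 cells, DESeq2 called 488 genes (34 higher, 454 lower), limma-voom 2 higher, and the 4 libraries alone 1331 (313 and 1018), against 158. The fit without crypt 2, chosen after seeing the data, called 1095 (211 and 884). Leaving out 1 of the 4 sorted libraries gave 0 to 14 calls, 0 to 1 higher and 0 to 13 lower, and crypt 1 and crypt 3 were not left out of this fit. For the regional interaction the counts were 3 without a filter (1 higher, 2 lower), 62 with DESeq2 (22 and 40), 2 with all 14 libraries (0 and 2) and 13 (5 and 8) without jejunum crypt 2 and ileum crypt 3, a fit also chosen after seeing the data. Leaving out 1 library gave 0 to 1 calls, 0 higher and 0 to 1 lower. The cause of these differences was not tested.

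Replicate numbers are shared between groups, and the labels do not say that a number marks a shared mouse or day. The LGR5 and crypt differences between numbers 1 and 2 correlated at 0.0101 over genes, and the LGR5 and CD166 differences at 0.119, and in both sorts the immediate early sum was higher in number 2. With the replicate number as a block, 1162 genes were called against crypt (139 higher, 1023 lower), 129 against CD166 and 0 for the interaction. Depth limits genes near 0 in LGR5 cells, such as Runx3 with 1 and 3 reads.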
